A study of Mus musculus with 6 samples.

Results

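The transcripts of 8 genes that mark the neural lineage were compared between wild-type mouse embryonic stem cells and cells labelled as lacking Cdh1, the gene of E-cadherin. The genes, chosen by name with earlier results of these data known, were Pax6, Pax3, Sox1, Sox11, Nes, Tubb3, Map2 and Ncam1. All 8 were found among the 55401 genes of the count table. Bulk total RNA was sequenced from V6.5 cells, an embryonic stem cell line. Of the 6 libraries, 3 were wild type (WT, replicates A, B and C) and 3 were Cdh1-/- (the knockout, replicates A, B and C). E-cadherin is an adhesion protein whose cytoplasmic tail binds beta-catenin. The title of the series concerns its effect on the stability and activity of beta-catenin. The labels give no treatment, no time in culture, no allele design and no number of knockout clones. They also do not say whether the libraries of a genotype came from separate cultures, so p-values measure the spread between these libraries, which may be technical.

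The library totals ranged from 18020719 to 23381942 counts. Levels are given in CPM, the usual depth-scaled count, with the SD of 3 libraries. Calls required an adjusted p under 0.05 in edgeR's quasi-likelihood test, with Benjamini-Hochberg adjustment over 17325 tested genes. Cdh1 itself stood at 559 ± 19.1 CPM (WT) and 173 ± 9.05 CPM (knockout). The defining stem cell genes were present in both groups. Pou5f1 was counted at 459 ± 37.0 CPM (WT) and 506 ± 58.1 CPM (knockout), and Nanog at 445 ± 68.0 and 526 ± 131 CPM. On the second principal component, which held 17.7% of the variance, knockout replicate A scored 21.5, while the other knockout libraries scored -7.38 (B) and -10.9 (C).

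Neural fate in the embryo begins in the ectoderm when signals of the BMP family are held back. SOX1 is an early transcription factor of the neural plate, and PAX6 and PAX3 are paired-box factors that divide the neural tube into forebrain, ventral and dorsal territories. Nestin is an intermediate filament protein of neural progenitors, SOX11 acts as progenitors become neurons, beta-III tubulin and MAP2 belong to the neuronal cytoskeleton, and NCAM is a neural adhesion molecule. Embryonic stem cells that keep their identity hold such genes at low or moderate levels, and NCAM, nestin and tubulin transcripts are not restricted to neural cells.

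The 8 genes did not move as a block. Pax6, Nes, Map2 and Sox11 fell in the knockout, Sox1, Tubb3 and Ncam1 were not called, and Pax3 had too few counts to be tested. Thus 4 of the 7 tested genes were called, all lower, where 13.3% of all tested genes were called, 5.71% lower and 7.60% higher. Because the 8 genes were chosen with earlier results of these data known, these shares are no test of the group. The median log2 fold change of the 7 was -0.45, against -0.01 for all tested genes. In 5 of the 8 genes, Pax3 included, every knockout library lay below every WT library, an arrangement found for 15.0% of tested genes. Separation with the knockout above was found for 15.7%, and separation in either direction for 30.7%. When WT library A, WT library B or knockout library B was left out, 2 genes were called, since Sox11 and Map2 then missed the threshold. Without replicate A of both genotypes, an alternative chosen after seeing the data, Pax6, Nes and Map2 were called lower and Sox1 higher. In bulk RNA, fewer cells that express a gene and less RNA per cell cannot be told apart.

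**Figure D1:**
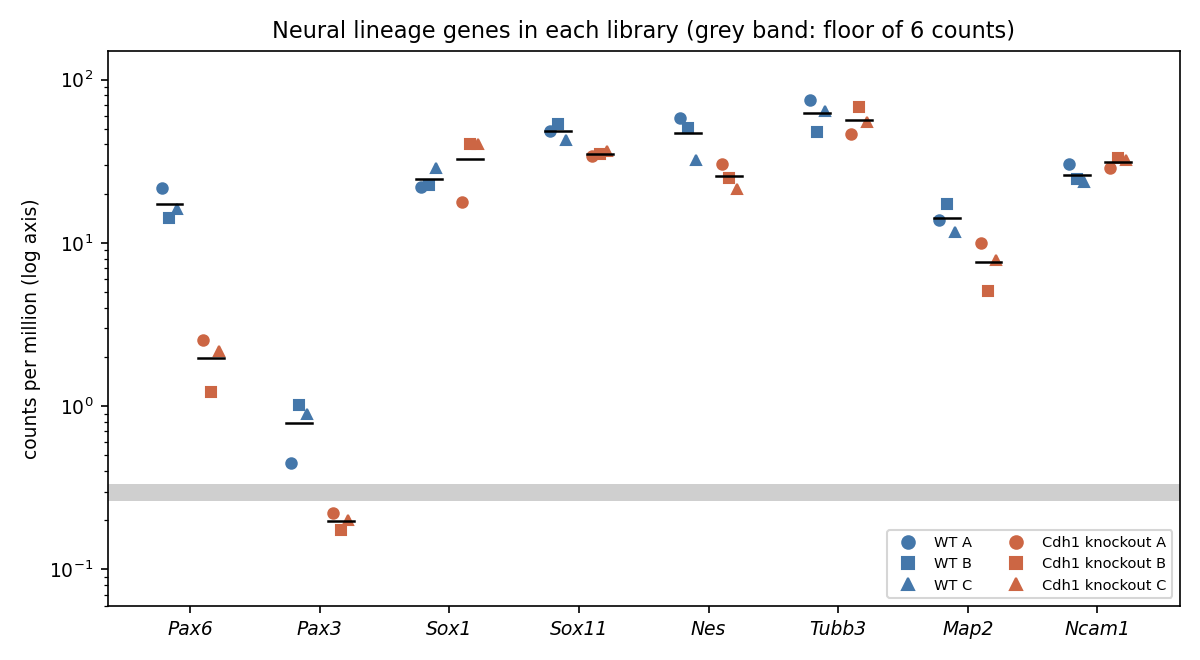
Level of each of the 8 genes in every library, in CPM on a log axis, with the mean of each genotype as a black bar and the floor of 6 counts as a grey band. The 3 knockout points of Pax6 lie between 1.22 CPM and 2.54 CPM, below all WT points, and those of Pax3 lie under the floor.

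Among the progenitor transcription factors, Pax6 changed most. Pax6 (ENSMUSG00000027168.21) is a protein-coding gene of chromosome 2, plus strand, spanning 105668900 to 105697364 (GRCm38, as for all positions here), and counts were summed over its exons. It was counted at 21.5 (A), 14.1 (B) and 16.1 CPM (C) among WT libraries, against 2.54 (A), 1.22 (B) and 2.17 CPM (C) among knockout libraries. The lowest WT library lay far above the highest knockout library. The mean fell from 17.3 ± 3.82 to 1.98 ± 0.680 CPM (n = 3 each), which is 11.5% of WT. On the log2 scale the difference was -3.14 (standard error 0.26, adjusted p 3.5e-06 in edgeR's quasi-likelihood test). Over the 15 alternatives it ranged from -3.36 to -2.86, and Pax6 was called in each. The knockout values rest on 28 to 46 counts per library and the WT values on 280 to 478.

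The sequences before the start sites of the genes that fell are shown because these genes share a direction, and because transcription with beta-catenin acts through the factors TCF and LEF, which recognise a short motif. The windows are those of RefSeq in GRCm38.p6, 250 bases before an annotated start and read 5′ to 3′ on the gene's strand. Bases that lie under an exon of the count table were left out of the printed sequences. Of the 8 genes, 6 had such a window and Pax6 had 2, with the second inside the gene. Capitals mark a match to a motif.
Pax6, upstream start, chr2:105668646-105668895, plus strand: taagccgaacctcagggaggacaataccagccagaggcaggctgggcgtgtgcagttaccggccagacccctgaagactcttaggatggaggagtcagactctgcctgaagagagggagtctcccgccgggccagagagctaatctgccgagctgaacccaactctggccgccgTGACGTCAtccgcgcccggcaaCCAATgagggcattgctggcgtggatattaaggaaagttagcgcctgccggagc
Pax6, internal start, chr2:105682213-105682462, plus strand: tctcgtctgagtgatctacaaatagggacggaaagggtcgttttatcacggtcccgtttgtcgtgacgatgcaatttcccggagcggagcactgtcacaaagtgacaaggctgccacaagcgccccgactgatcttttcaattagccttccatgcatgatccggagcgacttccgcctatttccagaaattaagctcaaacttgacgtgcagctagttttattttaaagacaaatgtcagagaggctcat
Nes, chr3:87970843-87971092, plus strand: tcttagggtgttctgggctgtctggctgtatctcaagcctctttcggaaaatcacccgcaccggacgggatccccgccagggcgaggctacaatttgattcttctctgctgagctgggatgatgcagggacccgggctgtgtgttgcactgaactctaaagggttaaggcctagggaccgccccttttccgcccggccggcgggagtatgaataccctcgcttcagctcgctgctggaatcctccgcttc
Sox11, chr12:27342719-27342968, minus strand: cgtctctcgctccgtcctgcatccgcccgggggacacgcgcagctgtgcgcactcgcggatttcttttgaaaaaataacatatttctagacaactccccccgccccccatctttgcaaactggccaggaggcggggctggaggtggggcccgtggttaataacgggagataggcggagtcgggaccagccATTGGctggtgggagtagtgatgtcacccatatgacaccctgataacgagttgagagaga
Map2, chr1:66175079-66175312, plus strand: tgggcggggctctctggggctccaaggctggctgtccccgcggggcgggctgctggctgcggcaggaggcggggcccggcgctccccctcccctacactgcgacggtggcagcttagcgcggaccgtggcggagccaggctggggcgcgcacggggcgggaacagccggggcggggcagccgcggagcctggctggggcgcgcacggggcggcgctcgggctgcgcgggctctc

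The windows were searched for short motifs. The letters searched on both strands were CTTTGAA and CTTTGAT (TCF/LEF), TGACGTCA (the cyclic AMP response element), CCAAT, ATGCAAAT (the octamer read by POU factors) and TATAAA. A TCF/LEF match stood in 7.50% of 32536 distinct windows of this length and in none of the windows of the 6 genes that had one. The upstream window of Pax6 held a cyclic AMP response element 76 bases before the start, a motif found in 1.56% of windows, and a CCAAT box, found in 33.8%. A CCAAT box, on either strand, also stood in the windows of Sox11, Sox1 and Tubb3, so in 4 of the 6 genes, and not in those of Nes and Map2. The match of Tubb3 lay among bases under an exon. Among the printed windows, GC content ran from 47.6% in the internal Pax6 window to 80.8% in that of Map2, against a median of 52.4% over all windows. A match is a run of letters and shows no binding, and its absence concerns these windows only.

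Pax3 (ENSMUSG00000004872.15, minus strand of chromosome 1, 78101267 to 78197134), the paired-box factor of the dorsal neural tube and neural crest, was near the limit of detection. The WT libraries held 10 (A), 20 (B) and 18 (C) counts, and each knockout library held 4. Low counts in this table were mostly even, from 78.1% to 83.1% of values between 1 and 10. The floor, at or under which a level was not told from 0, was set at 6 counts per library, which is 3 read pairs if both mates were counted. All 3 knockout libraries were under it and all 3 WT libraries above it. The WT mean of 0.787 ± 0.297 CPM was 2.63-fold the mean knockout floor of 0.299 CPM. This ratio leaves out the spread between WT libraries, the lowest of which stood at 0.450 CPM. The gene failed the count filter, and without that filter its adjusted p was 0.0880 in edgeR's quasi-likelihood test, with 0.107 in DESeq2. At this depth the difference was not called.

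Sox1 (ENSMUSG00000096014.1, plus strand of chromosome 8, 12395295 to 12400126) was not called. Its levels were 21.9 (A), 22.7 (B) and 28.8 CPM (C) among WT libraries, against 17.9 (A), 40.1 (B) and 40.3 CPM (C) among knockout libraries. Knockout replicate A was the lowest of the 6 libraries and the other knockout libraries were the highest, so the groups overlapped. The log2 fold change was 0.42 with a 95% interval from -0.07 to 0.92 (adjusted p 0.265, edgeR's quasi-likelihood test). Without knockout replicate A, which also stood apart on the second principal component, the log2 fold change was 0.72 and Sox1 was called higher (adjusted p 0.00065). It was also called without the count filter (adjusted p 0.0119).

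The closest relatives of Sox1 are Sox2 and Sox3, which with it form the SoxB1 group. Sox2, a gene of both pluripotent and neural progenitor cells, was counted at 545 ± 31.9 CPM (WT) and 535 ± 37.0 CPM (knockout), a log2 fold change of -0.03 with a 95% interval from -0.21 to 0.16. Sox3 was counted at 6.11 ± 0.774 and 4.35 ± 0.0709 CPM, and every knockout library lay below every WT library. Its log2 fold change of -0.49 had a 95% interval from -0.95 to -0.03 and did not pass the threshold (adjusted p 0.159, edgeR's quasi-likelihood test). Neither Sox2 nor Sox3 was called.

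Sox11 (ENSMUSG00000063632.6, minus strand of chromosome 12, 27334264 to 27342574) is a SoxC factor with a single exon. Its levels were 48.1 (A), 53.6 (B) and 42.6 CPM (C) among WT libraries, against 33.8 (A), 35.1 (B) and 36.7 CPM (C) among knockout libraries. The knockout libraries lay close together and below every WT library. The mean fell from 48.1 ± 5.49 to 35.2 ± 1.46 CPM, a difference of -0.45 on the log2 scale (standard error 0.11, adjusted p 0.0136, edgeR's quasi-likelihood test). The call was lost when WT library A (adjusted p 0.0584), WT library B (0.0839) or knockout library B (0.0595) was left out. The other SoxC genes also fell, and both kept their call in all 15 alternatives. Sox4 fell from 74.1 ± 1.19 to 38.6 ± 2.27 CPM (adjusted p 1.5e-05, log2 fold change -0.94), and Sox12 from 85.0 ± 3.43 to 60.0 ± 7.76 CPM (adjusted p 0.00426, log2 fold change -0.50).

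**Figure D2:**
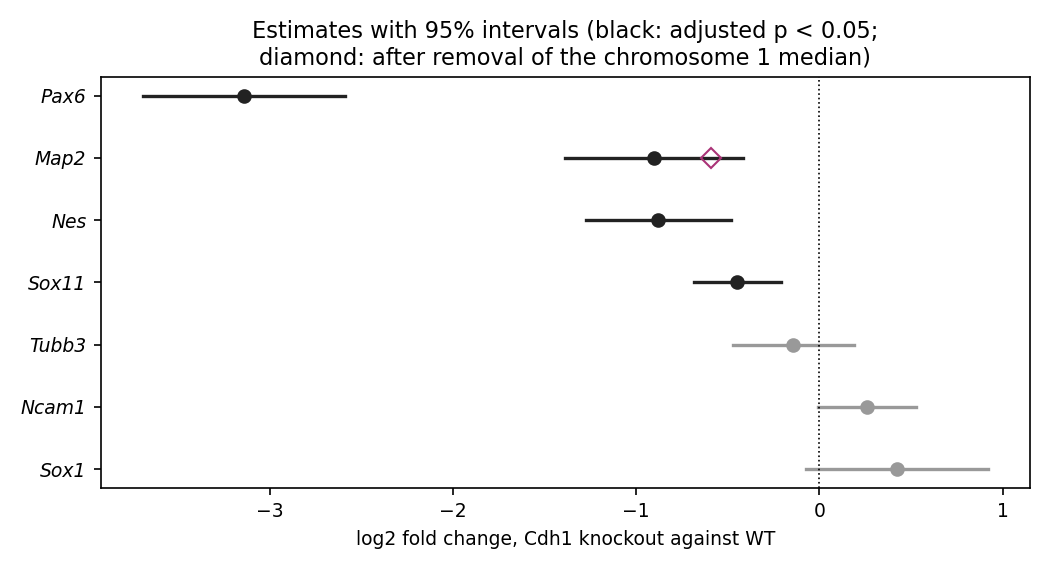
Log2 fold changes of the 7 tested genes, knockout against WT, with 95% intervals from edgeR's quasi-likelihood fit. The 4 called genes, from Pax6 at -3.14 to Sox11 at -0.45, are black, and the diamond shows Map2 at -0.59 after removal of the chromosome 1 median.

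Nestin transcripts were lower in the knockout. Nes (ENSMUSG00000004891.16, plus strand of chromosome 3, 87971093 to 87980451) was counted at 58.2 (A), 50.6 (B) and 32.2 CPM (C) among WT libraries, against 30.4 (A), 24.9 (B) and 21.5 CPM (C) among knockout libraries. The groups did not overlap, but WT replicate C and knockout replicate A lay close to each other. The mean fell from 47.0 ± 13.4 to 25.6 ± 4.49 CPM, a difference of -0.88 on the log2 scale (standard error 0.18, adjusted p 0.00505, edgeR's quasi-likelihood test). Nes was called in all 15 alternatives, with an adjusted p of at most 0.0442, reached without WT replicate A. Vim, which encodes vimentin, the filament protein that nestin assembles with, fell from 86.8 ± 2.54 to 62.3 ± 13.5 CPM (adjusted p 0.0249, log2 fold change -0.48). Its call was lost without WT replicate A (adjusted p 0.0704), B (0.0954) or C (0.0960) and without knockout replicate B (0.0582).

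Map2 (ENSMUSG00000015222.18, plus strand of chromosome 1, 66175313 to 66442583) encodes a microtubule-associated protein of dendrites. It was counted at 13.7 (A), 17.2 (B) and 11.7 CPM (C) among WT libraries, against 10.004 (A), 5.07 (B) and 7.82 CPM (C) among knockout libraries. All knockout libraries were below all WT libraries. The mean fell from 14.2 ± 2.77 to 7.63 ± 2.47 CPM, a difference of -0.90 on the log2 scale (standard error 0.23, adjusted p 0.0160, edgeR's quasi-likelihood test). The threshold was missed when WT library A (adjusted p 0.0534), WT library B (0.108) or knockout library B (0.0712) was left out.

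Map2 and Pax3 lie on chromosome 1, which was lower as a whole in the knockout libraries. The median log2 deviation of 637 well-counted chromosome 1 genes from the WT mean, relative to the other autosomes without chromosome 14, was -0.33 (A), -0.33 (B) and -0.29 (C) in the knockout. Of 1002 tested chromosome 1 genes, 27.8% were called lower, so the call of Map2 stands among many on its chromosome. After each library was centred on this median, the knockout libraries of Map2 stood at 12.5 (A), 6.37 (B) and 9.54 CPM (C). Knockout replicate A then lay above WT replicate C at 11.6 CPM. The log2 fold change became -0.59 with an adjusted p of 0.125, and 5.29% of chromosome 1 genes were still called lower. Pax3 after the same step stood at 0.277 (A), 0.220 (B) and 0.246 CPM (C) in the knockout, below the lowest WT value of 0.450 CPM. Pax6, Nes and Sox11 lie on other chromosomes.

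**Figure D3:**
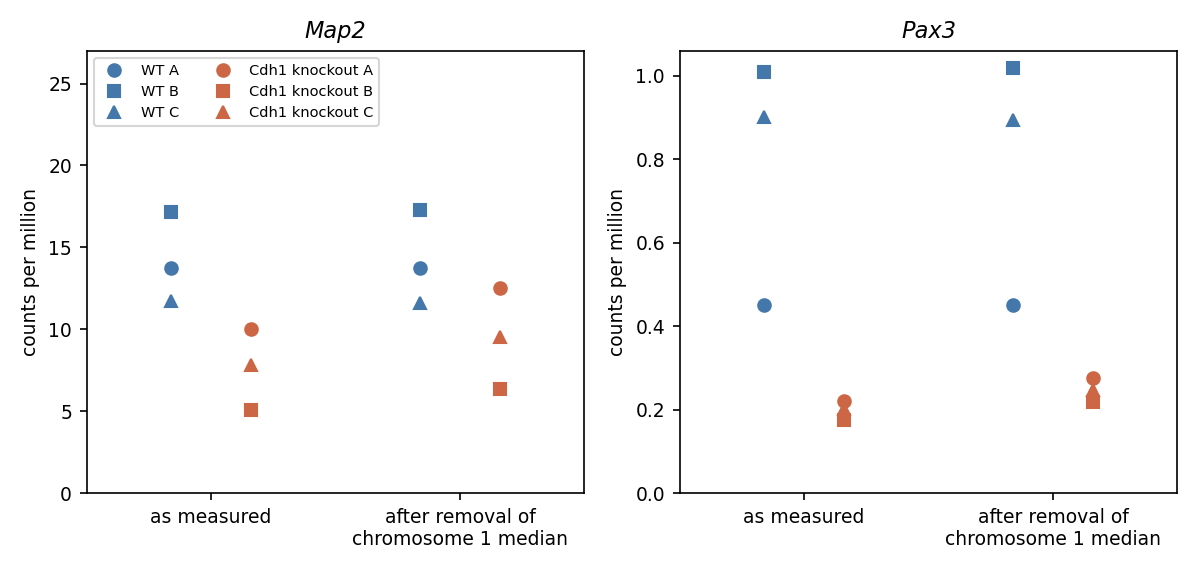
CPM of Map2 and Pax3 in each library, as measured and after removal of the chromosome 1 median of that library, on linear axes that start at 0. The knockout libraries of Map2 overlap the WT libraries after the removal and not before it, and those of Pax3 stay at or below 0.277 CPM.

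Other microtubule-associated proteins moved in both directions. Map1b, whose protein acts in growing axons, fell from 199 ± 23.4 to 117 ± 7.96 CPM (adjusted p 0.00012, log2 fold change -0.77). Mapt, which encodes tau, the axonal counterpart of MAP2, rose from 25.5 ± 1.73 to 41.8 ± 5.58 CPM (adjusted p 0.00122, log2 fold change 0.72). Both calls held in all 15 alternatives.

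Tubb3 (ENSMUSG00000062380.4, plus strand of chromosome 8, 123411424 to 123422015), the beta-tubulin of neurons, was not called, and its difference lay within the spread between libraries. Its levels were 74.4 (A), 48.0 (B) and 64.1 CPM (C) among WT libraries, against 46.4 (A), 67.6 (B) and 54.8 CPM (C) among knockout libraries. The ranges overlapped over most of their length. The log2 fold change was -0.14 with a 95% interval from -0.47 to 0.19 (adjusted p 0.618, edgeR's quasi-likelihood test), and it was 0.0085 without WT replicate A. Tubb2a, another beta-tubulin of the nervous system, rose from 14.7 ± 2.23 to 22.3 ± 1.30 CPM (adjusted p 0.0103, log2 fold change 0.60), a call that was lost without WT replicate A (adjusted p 0.0695). Tubb2b was counted at 130 ± 15.5 and 158 ± 8.03 CPM (adjusted p 0.0689, log2 fold change 0.28). It passed the threshold in DESeq2 (adjusted p 0.0478), without the count filter (0.0228), and when WT library A (0.0412) or knockout library A (0.0298) was left out. Beta-tubulin genes are alike in sequence, so their counts carry some uncertainty. The general beta-tubulin Tubb5 had a log2 fold change of 0.06 (95% interval from -0.10 to 0.21), and Tubb6 one of 0.15 (95% interval from -0.05 to 0.35).

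Ncam1 (ENSMUSG00000039542.16, minus strand of chromosome 9, 49502136 to 49798925), the gene of the neural cell adhesion molecule, was not called. Its levels were 30.3 (A), 24.5 (B) and 23.7 CPM (C) among WT libraries, against 28.9 (A), 33.0 (B) and 32.2 CPM (C) among knockout libraries. WT replicate A lay inside the knockout range, and the other WT libraries lay below it. The log2 fold change was 0.26 with a 95% interval from -0.01 to 0.53 (adjusted p 0.200, edgeR's quasi-likelihood test). A gene on the opposite strand covers 5.91% of its exon bases, and whether counting used strand is not given in the sources used here. Its relative Ncam2 had at most 6 counts in any library. The enzymes that add polysialic acid to NCAM were also close to the floor, St8sia2 with at most 6 counts and St8sia4 with at most 10 counts in a library.

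Levels per kilobase of exon allow the genes to be ordered. In WT, Tubb3 was highest at 33.3 ± 7.13 CPM per kilobase. Nes at 7.68 ± 2.18, Sox11 at 5.78 ± 0.661 and Sox1 at 5.07 ± 0.783 CPM per kilobase followed, and neighbours among these overlapped between libraries. Ncam1 at 3.71 ± 0.509, Pax6 at 2.50 ± 0.553, Map2 at 1.33 ± 0.259 and Pax3 at 0.204 ± 0.0768 CPM per kilobase each lay apart from the next. In the knockout, Sox1 was next to Tubb3 at 6.77 ± 2.67 CPM per kilobase, overlapping with Ncam1 at 4.45 ± 0.307. Ncam1 in turn overlapped with Sox11 at 4.24 ± 0.175, and Sox11 with Nes at 4.18 ± 0.734. Pax6 at 0.287 ± 0.0986 then stood below Map2 at 0.715 ± 0.232 CPM per kilobase, the reverse of their order in WT.

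**Figure D4:**
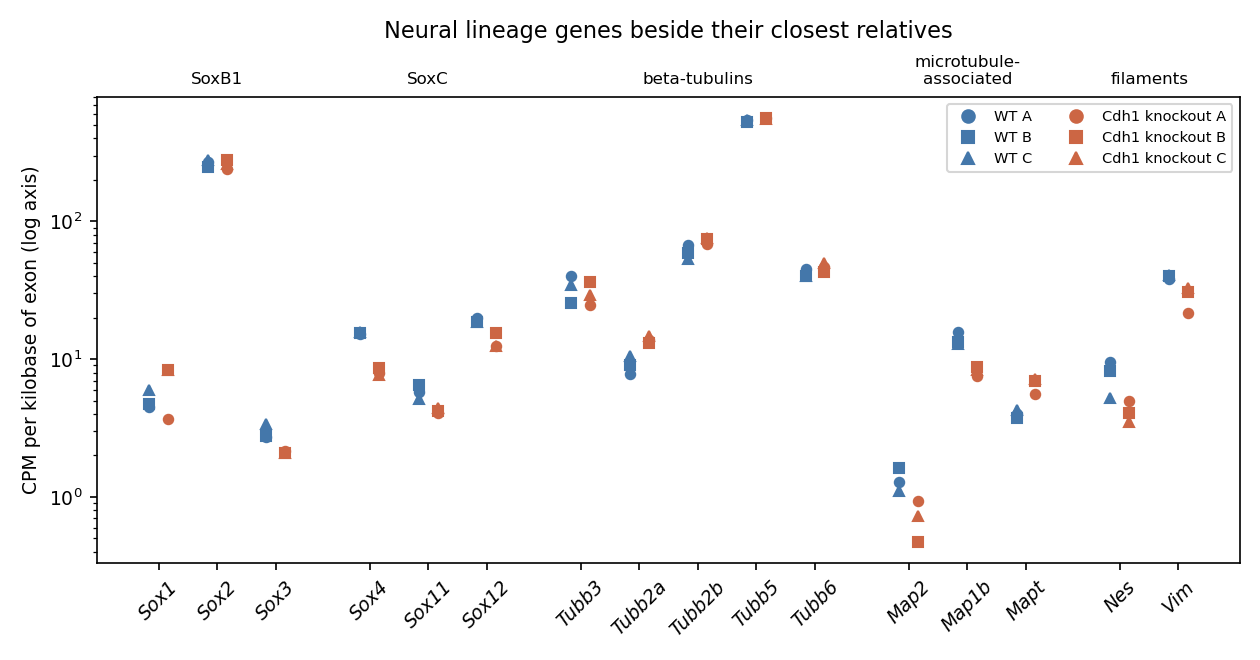
Levels per kilobase of exon in every library, on a log axis, for the neural lineage genes and their closest relatives. The 3 SoxC genes are lower in every knockout library, while Tubb5, the highest gene shown, had a log2 fold change of 0.06.

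The remaining genes of neural development were read from lists, some of whose genes belong to more than 1 list. Beside the counts of each list stand the shares over all tested genes, 5.71% called lower and 7.60% called higher. Of 30 further neural progenitor genes, 23 were tested, 5 were called lower and 5 higher, and their median log2 fold change was -0.03. Emx2, a forebrain homeobox gene, was called lower (adjusted p 0.00300, edgeR's quasi-likelihood test). It was at or under the floor in all knockout libraries, and its WT mean was 5.49-fold the mean knockout floor. A gene on the opposite strand covers 9.05% of its exon bases. Otx2, a homeobox gene of the epiblast and forebrain, fell from 31.9 ± 5.40 to 6.03 ± 2.94 CPM (adjusted p 4.2e-05, log2 fold change -2.39). Zic2, a zinc finger gene of the neural plate, fell from 49.2 ± 8.39 to 18.2 ± 2.35 CPM (adjusted p 1.4e-05, log2 fold change -1.43). Both lie on chromosome 14, which was higher as a whole in the knockout, with a median log2 fold change of 0.53 over 622 tested genes.

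Of the 5 neural progenitor genes called higher, Pou3f2 and Otx1 were close to the floor. Better counted were Gbx2 and, named after their values were seen, Sox21 and Olig2. A gene on the opposite strand covers 32.3% of the exon bases of Gbx2, and another covers 18.8% of those of Sox21. Sox21, on chromosome 14, rose from 6.74 ± 1.88 to 15.1 ± 4.01 CPM (adjusted p 0.00336, edgeR's quasi-likelihood test). After removal of the chromosome medians, 3 progenitor genes were called higher. Gbx2 and Otx1 kept their calls in that fit and Pou3f2 did not, so the call of Sox21 or Olig2 was also lost. Olig2 rose from 17.9 ± 1.59 to 28.4 ± 7.11 CPM (adjusted p 0.0155) and Gbx2 from 9.55 ± 2.52 to 17.2 ± 5.48 CPM (adjusted p 0.0242). The call of Gbx2 was lost without WT replicate A or B or knockout replicate B or C. Otx1 rose from 0.713 ± 0.0852 to 1.97 ± 0.712 CPM (adjusted p 0.0332, log2 fold change 1.46), and Pou3f2 from 0.197 ± 0.176 to 0.861 ± 0.219 CPM (adjusted p 0.0409). Otx1 lost its call without WT replicate A (adjusted p 0.118), B (0.105) or C (0.0695) and without knockout replicate C (0.184), and in limma-voom (0.0508). Pou3f2 lost its call without WT replicate A (adjusted p 0.189) or B (0.182), and without knockout replicate A (0.0524), B (0.0925) or C (0.169). It was also lost in DESeq2 (adjusted p 0.0793) and after removal of chromosome medians (0.0504). The whole list held 4 called genes without WT replicate A, 4 without knockout replicate C, 5 without WT replicate B and 5 without knockout replicate B. Those called higher numbered 1, 1, 2 and 2 in the same order. Sox21 or Olig2 was thus also not called without WT replicate A, knockout replicate C or knockout replicate B.

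Proneural factors and neuronal genes gave a like picture of mixed directions. Of 30 listed genes, 23 were tested, 4 were called lower and 4 higher, with a median log2 fold change of 0.00078. The proneural factors Neurog1, Neurog2, Neurod4 and Atoh1 failed the count filter, as did the neuroblast gene Dcx. Crmp1, which acts in axon guidance, fell from 19.5 ± 3.19 to 4.597 ± 0.960 CPM (adjusted p 8.5e-06, log2 fold change -2.09, edgeR's quasi-likelihood test). Stmn2, a microtubule regulator of growing neurites, fell from 202 ± 11.8 to 108 ± 7.62 CPM (adjusted p 1.3e-05, log2 fold change -0.91). Its relative Stmn3 rose from 3.17 ± 0.931 to 6.40 ± 0.928 CPM (adjusted p 0.0204, log2 fold change 1.01), a call lost without WT replicate C (adjusted p 0.0683) or knockout replicate C (0.0758). Nefl lies on chromosome 14 and encodes the light neurofilament protein. Its level rose from 11.045 ± 0.821 to 26.6 ± 3.86 CPM (adjusted p 4.8e-05, log2 fold change 1.26). Exons of Nefm on the opposite strand cover 32.8% of its exon bases. After removal of the chromosome 14 median its log2 fold change was 0.72 (adjusted p 0.00448).

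**Figure D5:**
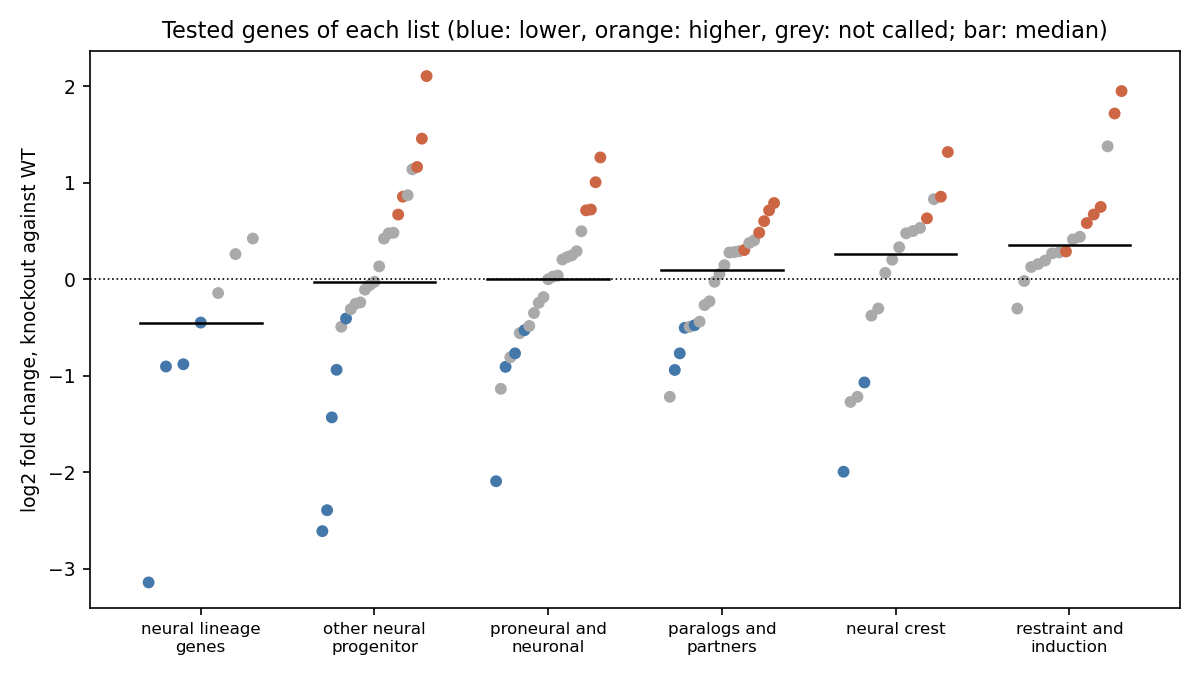
Log2 fold changes, knockout against WT, of the tested genes of 6 lists, sorted within each list, with the median as a bar. Genes called lower and higher are both present in the progenitor, neuronal, paralog and neural crest lists, and the 6 called genes of the restraint and induction list lie above 0.

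The list of paralogs and partners held 26 genes, of which 22 were tested, 4 were called lower and 5 higher, with a median log2 fold change of 0.10. The genes called lower were Sox4, Sox12, Map1b and Vim. Those called higher were Tubb2a and Mapt and, named after their values were seen, Map1a, Map4 and Synm. Of 20 neural crest genes, 16 were tested, 2 were called lower and 3 higher, with a median of 0.27. Tfap2a, a regulator of neural crest and surface ectoderm, fell from 2.79 ± 0.476 to 0.697 ± 0.0815 CPM (adjusted p 0.00187, log2 fold change -1.99, edgeR's quasi-likelihood test), where opposite-strand genes cover 16.0% of the exon bases. Ets1 fell from 10.3 ± 0.732 to 4.89 ± 0.676 CPM (adjusted p 0.00162, log2 fold change -1.07). Twist1, which acts in mesenchyme and crest, rose from 3.72 ± 1.70 to 9.25 ± 1.81 CPM (adjusted p 0.00867, log2 fold change 1.32). The count of called crest genes was 3 without WT replicate A or B and without knockout replicate B or C. The losses were in Gbx2 (adjusted p 0.123, 0.130, 0.0918 and 0.130 in that order) and Foxd3 (0.148, 0.201, 0.146 and 0.208). Foxd3, at an adjusted p of 0.0494 in the main test, also missed the threshold under RLE scaling (0.0507), library totals (0.0628), a mean of at least 50 counts (0.0583), limma-voom (0.0604) and removal of chromosome medians (0.0602).

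Among genes that restrain or permit neural induction, the called genes were higher. Of 18 listed genes, 16 were tested, 6 were called higher and 0 lower, with a median log2 fold change of 0.35. At an unadjusted p under 0.05 there were 11 of either direction, where 26.7% of all tested genes passed that limit. DESeq2 also called 0 of them lower, while Id2, named after its value was seen, was called lower without knockout replicate A. Bmp4, a ligand that holds back neural fate, rose from 10.2 ± 1.22 to 33.5 ± 6.65 CPM (adjusted p 8.5e-06, log2 fold change 1.72, edgeR's quasi-likelihood test). It lies on chromosome 14, and after removal of that chromosome's median its log2 fold change was 1.18 (adjusted p 0.00027). Among extracellular antagonists of this signalling, Fst and Chrd were called and Nog was not (adjusted p 0.0741, log2 fold change 1.38). Fst, which encodes follistatin, rose from 1.86 ± 0.222 to 7.17 ± 2.37 CPM (adjusted p 0.00040, log2 fold change 1.95), and Chrd, which encodes chordin, from 5.15 ± 0.876 to 8.67 ± 1.05 CPM (adjusted p 0.0261, log2 fold change 0.75). Id1, a BMP target that blocks proneural factors, rose from 60.6 ± 17.5 to 96.6 ± 19.4 CPM (log2 fold change 0.67, adjusted p 0.0196, and adjusted p 0.118 in DESeq2). Hes1, a repressor of neuronal differentiation, rose from 41.8 ± 3.98 to 62.5 ± 13.6 CPM (adjusted p 0.0121, log2 fold change 0.58).

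Several of these calls were lost when any of several libraries was left out. The list held 2 called genes when WT library A was left out, 3 for WT library B and 2 for knockout library C. Over all tested genes, 2307 were called with all libraries, and 1374, 1470 and 1602 in those 3 fits. Chrd lost its call in those 3 fits, with adjusted p of 0.124, 0.0539 and 0.0811. Id1 did so at 0.0836, 0.104 and 0.112. Hes1 did so at 0.0641, 0.0806 and 0.0749, and also without knockout replicate B (0.0564). Fgf4, which encodes a growth factor of stem cells, lost its call in the same 3 fits (0.133, 0.155 and 0.102) and without knockout replicate B (0.0982). Rest, the repressor of neuronal genes outside the nervous system, was counted at 471 ± 8.92 CPM (WT) and 539 ± 52.4 CPM (knockout). Every knockout library lay above every WT library, but the log2 fold change of 0.19 (95% interval from 0.01 to 0.38) was not called (adjusted p 0.164, edgeR's quasi-likelihood test).

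Markers of other cell types were read beside these results, where 5.71% of all tested genes were called lower and 7.60% higher. Feeder layers used in stem cell culture are fibroblasts. The summed level of 12 fibroblast genes lay between 52.1 CPM and 73.6 CPM in WT libraries and between 53.0 CPM and 66.3 CPM in knockout libraries. S100a4 was at 0 in every library. Of these 12 genes, 8 were highest in replicate A of both genotypes. Col3a1 had 114 (A), 12 (B) and 20 (C) counts in WT and 42 (A), 2 (B) and 2 (C) in the knockout. Of the 8 neural lineage genes, Pax6 and Nes were also highest in replicate A of each genotype. The share of all genes with this arrangement was not determined, and a link between the lists was not tested. Without both A libraries, the log2 fold change of Pax6 was -3.17 (adjusted p 1.6e-06), that of Nes -0.84 (0.00567), that of Map2 -1.17 (0.00479) and that of Sox11 -0.42 (0.0598, not called). Sox1 was then called higher (0.64, adjusted p 0.00779). Of 8 tested fibroblast genes, Col1a1 fell from 12.5 ± 3.27 to 4.49 ± 1.28 CPM (adjusted p 0.00091, edgeR's quasi-likelihood test) and Pdgfra rose from 6.73 ± 2.04 to 18.9 ± 5.22 CPM (adjusted p 0.00062). The summed level of the fibroblast genes joins these opposite changes. The summed level of 10 glial genes lay between 102 CPM and 111 CPM in WT and between 109 CPM and 113 CPM in the knockout. Aqp4 was at 0 throughout, Gfap was counted at 1.53 ± 0.152 and 2.94 ± 0.561 CPM (adjusted p 0.0636), and Cnp was the single called gene of 7 tested, with a log2 fold change of 0.48 (adjusted p 0.0115), a call lost without WT replicate B (0.0604) or knockout replicate C (0.0584).

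Some endoderm genes rose in the knockout. The summed level of 15 mesoderm and endoderm genes lay between 36.4 CPM and 52.9 CPM in WT libraries and between 75.7 CPM and 112 CPM in knockout libraries. Of these, 12 were tested, 5 were called higher (Gata4, Gata6, Sox17, Sox7 and Foxa2) and 0 lower, with 6 of either direction at an unadjusted p under 0.05. Over all tested genes, 7.60% were called higher and 5.71% lower, and 26.7% passed that unadjusted limit. Foxa2 was at or under the floor of 6 counts in all WT libraries. In edgeR's quasi-likelihood test its call was lost without WT replicate A (adjusted p 0.108), B (0.0958) or C (0.112) and without knockout replicate C (0.180). It was also lost in limma-voom (adjusted p 0.0674). Gata4, a primitive endoderm factor, rose from 10.7 ± 3.85 to 34.8 ± 10.9 CPM (adjusted p 0.00023, log2 fold change 1.70, edgeR's quasi-likelihood test). Sox17, an endoderm factor, rose from 1.96 ± 0.767 to 8.67 ± 2.11 CPM (adjusted p 0.00024, log2 fold change 2.15). Gata4 and Sox7 lie on chromosome 14, which was higher as a whole, and Sox17 on chromosome 1, which was lower. After removal of the chromosome medians the log2 fold changes were 1.16 for Gata4 (adjusted p 0.00589), 1.64 for Sox7 (0.00206) and 2.46 for Sox17 (9.4e-05). The mesoderm genes T (log2 fold change -0.51), Mixl1 (-0.75), Kdr (-1.16) and Hand1 (-0.64) were not called. The 10 stem cell genes summed to between 4981 CPM and 5460 CPM in WT and between 5799 CPM and 7135 CPM in the knockout, with 3 called higher, Klf4, Tdgf1 and Fgf4. The part of these other cell states in the lower neural genes was not tested.

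The genes most like each called member across the 6 libraries were found by the root mean square difference of centred log2 CPM, among 12847 other genes averaging 50 counts or more. Nearest to Pax6 were Vgf (0.39), Epp13 (0.41) and Acta2 (0.44). Vgf, which encodes a secreted neuropeptide precursor, stood at 8.22 ± 0.957 CPM (WT) and 1.29 ± 0.127 CPM (knockout). Nearest to Nes were Naaladl1 (0.098), Igsf9 (0.12) and D430018E03Rik (0.13). Map2 was nearest to Dmrtc2 (0.10), Tes (0.12) and Nos1ap (0.14). Sox11 was nearest to Pgap1 (0.046), Alg13 (0.048) and Trim44 (0.051). Pgap1, Igsf9 and Nos1ap lie on chromosome 1, which was lower as a whole in the knockout. After removal of the chromosome medians, their log2 fold changes went from -0.49 to -0.18, -0.87 to -0.56 and -0.74 to -0.43. Pgap1 then lost its call and Igsf9 kept it. D430018E03Rik, Dmrtc2 and Nos1ap were not called in the main test. The differences describe likeness in these libraries.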

How the data were processed

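Total RNA of V6.5 cells was turned into directional libraries, per the labels' protocols. A single matrix of unnormalized gene counts was deposited by the authors, beside exon coordinates and lengths, and 0 of its sample columns were left unused. Cutadapt 2.10, STAR 2.7.5b, featureCounts 2.0.1 and the build GRCm38 are named per the submitters' processing notes, and the strand setting is not given in the sources used here. Symbols were attached by Ensembl identifier to 55141 of 55401 genes. No library duplicated another.

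Testing used edgeR 4.0.16 under R 4.3.3 (filterByExpr with a smallest count of 10 and total of 15, TMM, glmQLFit, glmQLFTest) on all 6 libraries with genotype as the only term. The filter left 17325 of 32417 genes with a count. CPM values use the TMM-scaled totals. The 95% intervals and standard errors derive from the F statistic. On simulated counts the fit recovered most changed genes. Its share of false calls was above the nominal rate in the random draw that was kept, the worst of several tried. Calls near the threshold, such as those of Sox11 and Map2, are therefore less sure. The ratios for Pax3 and Emx2 compare a WT mean with the floor of 6 counts per library, which was 0.262 CPM to 0.332 CPM. The floor covers counting error only and not the spread between libraries. Chromosome medians used genes averaging 100 counts or more and entered as offsets.

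The genes and lists were chosen with earlier results of these data known. The text names the 8 genes, a fixed set of relatives and controls, up to 5 called genes of each list with the largest changes, and 3 genes of nearest pattern. Alternatives were RLE scaling, library totals, no filter, a mean of at least 50 counts, DESeq2 1.42.0, limma-voom (limma 3.58.1), the replicate letter as a block, counts divided by 2, removal of chromosome medians, leaving out each library and, added after seeing the data, leaving out replicate A of both genotypes. Promoters came from RefSeq (GRCm38.p6).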

Additional observations from a re-analysis of the deposited data

How the results depend on the processing

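The count of called neural lineage genes was 4 under RLE scaling, library totals, a mean of at least 50 counts, DESeq2, limma-voom and halved counts, 5 without the filter and 3 after removal of chromosome medians. Over the fits that each left out 1 library it ranged from 2 to 5. Over the same fits, all called genes ranged from 1374 to 2784, other progenitor genes from 4 to 9, neural crest genes from 3 to 6, and restraint and induction genes from 2 to 8. With a mean of at least 50 counts, 3 crest genes were called, since Tfap2a was not tested and Foxd3 missed the threshold. Values near 0 changed sign. The progenitor median was 0.0027 without the filter and from -0.061 to 0.029 without 1 library. The neuronal median was -0.035 with library totals, -0.0054 with a mean of at least 50 counts, -0.18 after removal of chromosome medians, and from -0.16 to 0.034 without 1 library. The log2 fold change of Sox2 was 0.0027 without the filter and from -0.070 to 0.028 without 1 library, and that of Tubb3 from -0.30 to 0.0085. Without replicate A of both genotypes, an alternative chosen after seeing the data, the neuronal median was -0.022, Sox2 stood at 0.035 and Tubb3 at 0.13. The cause was not tested.

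The letters A, B and C are shared between genotypes. Deviations of same-lettered libraries correlated at 0.16 (A), -0.15 (B) and 0.40 (C) across genes, so the letters were not taken as pairs. With the replicate block, 4 neural lineage genes and 2686 genes in all were called, and no named gene changed its call. Depth limits Pax3, whose counts lie near the floor.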
